A study of Mus musculus with 18 samples.

Results

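The respiratory chain genes described here were taken by symbol to cover the protein subunits of complexes I to V. They are nuclear genes of the Nduf, Sdh, Uqcr, Cox4 to Cox8 and Atp5 families, and the protein genes of the mitochondrial genome. Genes marked as pseudogenes by -ps were left out. Another 4 without that mark (Ndufa11b, Ndufb4c, Ndufs6b and Cox6c2) are annotated as processed pseudogenes and stay in the counts of genes. The rule found 102 genes among the 55487 in the count tables, 89 of them nuclear and 13 mitochondrial. The nuclear genes were 40 of complex I, 4 of complex II, 8 of complex III, 19 of complex IV and 18 of complex V, and the mitochondrial genes were 7, 0, 1, 3 and 2 of the same complexes. RNA was sequenced from subcutaneous white adipose tissue (sWAT) of 12-week-old male mice and from brown adipose tissue (BAT) of 4-week-old male mice. In each depot, Csn8AKO mice, which carried floxed Csn8 alleles and Adiponectin-Cre, were compared with Csn8 f/f littermates without Cre (Ctrl), all after a 4 h fast: 4 Ctrl and 4 Csn8AKO mice for sWAT, and 5 and 5 for BAT, with 1 mouse per library. Csn8 (Cops8 in the tables) encodes a subunit of the COP9 signalosome, which removes the modifier NEDD8 from cullins; Cre driven by Adiponectin deletes it from adipocytes, so the other cells of the tissue kept the gene. Depot and age differed together, so their parts in any difference between sWAT and BAT cannot be told apart.

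Complexes I, III and IV pass electrons from NADH to oxygen and pump protons across the inner mitochondrial membrane, complex II feeds in electrons from succinate without pumping, and complex V, the ATP synthase, uses the returning protons to make ATP. Complex II is encoded wholly in the nucleus, whereas the others combine nuclear subunits with subunits read from the mitochondrial genome. Brown adipocytes carry a dense respiratory chain but little ATP synthase, which textbooks link to low expression of the P1 gene of its c-subunit ring (Atp5g1), and they let protons return through UCP1 as heat. Several complex IV subunits have paired forms, one found in most tissues and one typical of heart, skeletal muscle or brown fat (Cox7a1 and Cox8b among the latter).

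Depth ranged from 15835721 to 23109603 counts per library in sWAT and from 26658593 to 66719937 in BAT, and ribosomal RNA genes took 1.07% to 48.5% of counts, most in sWAT Csn8AKO 4. Levels are given as CPM, counts brought to a common library total and scaled by TMM factors, and a gene was called where its adjusted p in edgeR's quasi-likelihood test was under 0.05. Cops8 lay between 33.9 and 36.2 CPM in sWAT Ctrl and between 29.2 and 36.0 in sWAT Csn8AKO, with a log2 fold change of -0.12 (SE 0.11, adjusted p = 0.623). In BAT it lay between 36.5 and 44.6 CPM in Ctrl and between 28.2 and 36.9 in Csn8AKO and fell by 0.30 on the log2 scale (SE 0.09, adjusted p = 0.0211). The whole-gene count takes in exons outside the deleted exons 4 to 6 and RNA of cells without Cre.

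Several libraries stood apart. BAT Csn8AKO 2 held many respiratory chain genes near the Ctrl level: Sdha, the flavoprotein of complex II, was at 2393 CPM there, against 1433 to 1567 CPM in the other 4 Csn8AKO libraries and 2171 to 2757 in Ctrl. It was the highest of the 10 BAT libraries for 14 of the 85 nuclear genes tested and the lowest for 0. Its Cops8 level, 29.7 CPM, lay below every Ctrl library, and its summed macrophage markers (12 genes, 284 CPM) and fibroblast markers (8 genes, 3366 CPM) lay above every Ctrl library, whose highest sums were 141 and 2213 CPM. In sWAT, Csn8AKO 2 was the lowest of the 8 libraries for 76 of 83 nuclear and 12 of 13 mitochondrial genes, and it had the highest sum of B and T cell markers (620.2 CPM, against 282 in Ctrl 1 and 10.7 to 32.2 in the other 6). At the other end, sWAT Ctrl 2 was the highest of the 8 libraries for 63 of 83 nuclear and 10 of 13 mitochondrial genes. BAT Csn8AKO 1 and 5 held skeletal muscle markers at sums of 149.8 and 273 CPM, against 3.75 to 5.05 in the other 8 BAT libraries. Counts of called genes are therefore given with and without Csn8AKO 2 in each depot.

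Among controls, nearly the whole chain was higher in BAT than in sWAT. Of 99 genes tested in a fit of all 18 libraries, 96 were higher in BAT Ctrl (25.9% of all genes tested were), 2 were lower (25.7%) and 1 was not called. The median log2 difference, BAT minus sWAT, was 2.26 over the members and 0.03 over all genes tested. It was 2.12 for the nuclear genes of complex I, 2.57 for complex II, 2.63 for complex III, 2.20 for complex IV and 1.78 for complex V, and 2.82 for the mitochondrial genes. All 13 mitochondrial genes were higher in BAT, from mt-Nd6 (2.15, SE 0.23), the only one read from the other strand, to mt-Atp8 (3.10, SE 0.34), a short membrane subunit of ATP synthase. Among the genes higher in BAT, Cox7a1, the heart and muscle form of subunit 7a, differed most, with a mean of 4.27 CPM in sWAT and 269 in BAT (log2 difference 5.98, SE 0.31, adjusted p = 3.5e-11). Cox8b, the paired form of subunit 8, followed with 33.9 and 583 CPM (4.10, SE 0.35, adjusted p = 1.4e-08). Their widely expressed partners Cox7a2 (1.76, SE 0.21) and Cox8a (1.91, SE 0.23) were also higher in BAT.

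The genes that went the other way were Cox6a2 and Atp5g1. Cox6a2, the muscle form of subunit 6a, averaged 2.57 CPM in sWAT Ctrl and 0.025 in BAT Ctrl (0 to 2 counts per library), a fitted log2 difference of -6.57 (SE 0.94, adjusted p = 1.24e-05) that rests on counts near 0 in BAT. Skeletal muscle markers summed to 208 to 3340.3 CPM in sWAT Ctrl and 3.87 to 4.58 CPM in BAT Ctrl, with the highest Cox6a2 (5.79 CPM) and the highest muscle sum in the same library, sWAT Ctrl 3. The part of muscle RNA in this difference was not tested. Atp5g1 averaged 21.3 CPM in sWAT Ctrl and 5.61 in BAT Ctrl (log2 difference -1.93, SE 0.29, adjusted p = 1.71e-05), although most of the ATP synthase was higher in BAT. Atp5g3, another gene for the same c subunit, was the member not called (log2 difference -0.22, SE 0.18, adjusted p = 0.324), and Atp5g2 was higher in BAT (1.13, SE 0.13, adjusted p = 5.24e-07). Per kilobase of annotated length, BAT Ctrl held 1619 CPM per kb of Cox8b and 1012 to 1157 of Atp5b and Atp5a1, which form the catalytic head of ATP synthase, but 53.9 to 54.0 of Atp5g3 and Atp5g2 and 1.14 of Atp5g1. These values depend on the annotated lengths, which were 360 bases for Cox8b, 2181 for Atp5g3, 1675 for Atp5g2 and 4912 for Atp5g1. In CPM, the BAT Ctrl means were 117 for Atp5g3, 90.5 for Atp5g2 and 5.61 for Atp5g1.

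**Figure D1:**
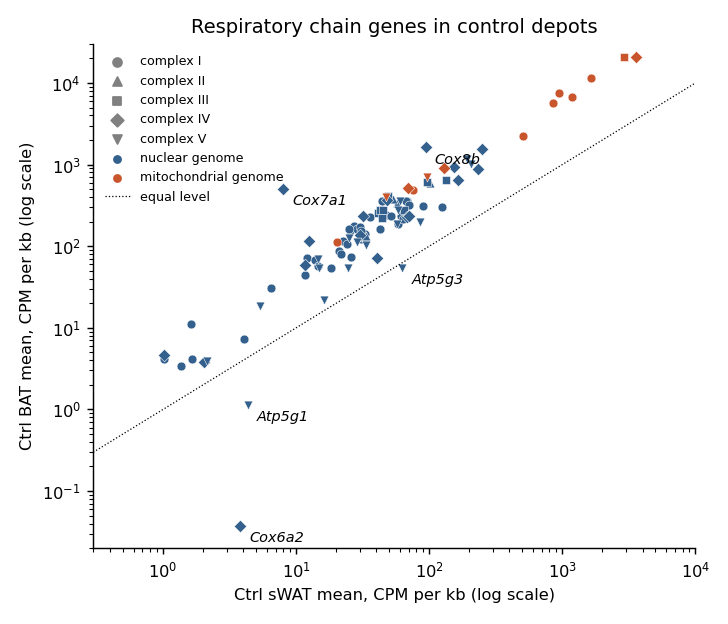
Mean level of each respiratory chain gene in Ctrl libraries, in CPM per kilobase of annotated length on log axes, sWAT (4 libraries) on the horizontal axis and BAT (5 libraries) on the vertical axis; colour gives the genome and symbol shape the complex. Almost all genes lie above the dotted line of equal level, Cox7a1 and Cox8b farthest among the well expressed, whereas Atp5g1, Atp5g3 and Cox6a2 lie below it.

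In BAT, most respiratory chain genes were modestly lower in Csn8AKO than in Ctrl, and Atp5g1 was several-fold higher. Of 98 genes tested, 60 were called lower (15.8% of all genes tested were) and 2 higher (16.0%); 95 of the 98 log2 fold changes were negative, with a median of -0.38 against 0.01 over all genes. The groups were fully apart for 20 genes that were lower (10.9% of all genes were) and 1 that was higher (10.1%). None of the 60 was lower by 1 or more on the log2 scale (4.16% of all genes were). Leaving out Csn8AKO 2 brought the called genes to 68 of 85 nuclear and 12 of 13 mitochondrial lower, from 51 and 9, still with 0 past that fold (18.0% of all genes were then called lower and 17.7% higher). Fibroblast markers were called higher in BAT Csn8AKO for 8 of 8 genes and macrophage markers for 11 of 12, with sums that did not overlap between genotypes (3366 to 5893 against 1311 to 2213 CPM, and 284 to 366 against 103 to 141 CPM). The 12 adipocyte markers summed to 13969.7 to 16673 CPM in Ctrl and 13893 to 17265 in Csn8AKO. Single adipocyte markers did differ: 3 of the 12 were called lower and 1 higher, with log2 fold changes from -0.80 to 3.19. The part of the cell mixture in the lower respiratory chain was not tested, and fewer cells of a type and less RNA per cell cannot be told apart in these tissue samples. Without BAT Csn8AKO 1 and 5, the libraries with muscle markers, 26 nuclear and 3 mitochondrial genes were called lower. That fit held fewer mice, and the share of all genes called in it was not taken. With a skeletal muscle marker covariate in the BAT fit, 22 of the 62 called genes stayed called, and the members' median log2 fold change was -0.28. The share of all genes called was not taken there either. Muscle markers were high only in Csn8AKO libraries, and the part of muscle RNA apart from genotype was not tested.

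Complex I had 26 of 40 nuclear genes called lower (median log2 fold change -0.35), and 34 of 40 without Csn8AKO 2. Ndufs6, an accessory subunit of the electron-accepting arm, read 157, 137, 151, 145 and 151 CPM in Ctrl and 79.5, 113, 77.9, 79.3 and 79.7 CPM in Csn8AKO 1 to 5. The groups did not overlap, and Csn8AKO 2 was the one closest to Ctrl (log2 fold change -0.79, SE 0.10, adjusted p = 6.92e-05). Ndufs6b, a processed pseudogene nearly identical to it, was lower by a like amount (-0.74, SE 0.18), and reads of the pair cannot be fully told apart. Ndufc1 (-0.74, SE 0.09) and Ndufv1, which carries the NADH-binding site (-0.48, SE 0.13, adjusted p = 0.0113), were also lower. Ndufa4, named for complex I but now assigned to complex IV, fell by 0.60 (SE 0.11, adjusted p = 0.000669). At the other end, its relative Ndufa4l2, a hypoxia-responsive gene, stood at 0.26 and was not called (adjusted p = 0.19).

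All 4 genes of complex II were lower, by nearly equal amounts: Sdhc by 0.54 (SE 0.10, adjusted p = 0.00106), Sdhb by 0.53 (SE 0.13, adjusted p = 0.00706), Sdhd by 0.52 (SE 0.13, adjusted p = 0.00662) and Sdha by 0.51 on the log2 scale (SE 0.15, adjusted p = 0.0183). Sdha read 2304, 2209, 2757, 2404 and 2171 CPM in Ctrl and 1567, 2393, 1471, 1433 and 1443 in Csn8AKO. Sdhb, the iron-sulfur subunit, read 783, 710, 733, 730 and 728 CPM in Ctrl and 495, 719, 445, 449 and 434 in Csn8AKO. In both genes Csn8AKO 2 lay inside the Ctrl range and the other 4 libraries lay below it. Sdhc, a membrane anchor, read 398 to 448 CPM in Ctrl and 260 to 363 in Csn8AKO, without overlap. Sdhd, the other anchor, read 414 to 505 CPM in Ctrl and 272 to 300 in Csn8AKO apart from 428 in Csn8AKO 2. Without Csn8AKO 2 all 4 stayed called, with Sdha at -0.68 and Sdhb at -0.69. Sdha lost its call when Csn8AKO 3, 4 or 5 was left out (adjusted p up to 0.0544).

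In complex III, 4 of 8 nuclear genes were called lower, and these were the small subunits Uqcr10 (-0.51, SE 0.11, adjusted p = 0.00242), Uqcrb, Uqcrq and Uqcr11. The core proteins Uqcrc1 (-0.10, adjusted p = 0.536) and Uqcrc2 (-0.17, adjusted p = 0.411), the hinge protein Uqcrh (-0.12) and the Rieske iron-sulfur protein Uqcrfs1 (-0.06) were not called. In Uqcrc1 and Uqcrc2, Csn8AKO 2 was the highest of all 10 libraries, at 1940 and 811 CPM against Ctrl maxima of 1703 and 680. Without that library, 7 of the 8 genes were called lower.

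In complex IV, 6 of 16 nuclear genes were called lower and 1 higher, and without Csn8AKO 2 the counts were 10 and 1. Cox7a1 fell most: it read 265, 217, 304, 286 and 224 CPM in Ctrl and 158, 221, 128, 120 and 122 in Csn8AKO (log2 fold change -0.79, SE 0.17, adjusted p = 0.00273). Csn8AKO 2 again lay within the Ctrl range and the other 4 below it, and without it the log2 fold change was -0.97 (SE 0.12, adjusted p = 3.05e-05). Cox7b (-0.54), Cox6c (-0.50), its near-copy Cox6c2, a processed pseudogene (-0.66), Cox7a2 (-0.45) and Cox7c (-0.33) were the others. Cox8b read 533, 430, 660, 690 and 501 CPM in Ctrl and 309, 638, 336, 354 and 346 in Csn8AKO, with Csn8AKO 2 inside the Ctrl range and the other 4 below it. It was not called in edgeR (-0.51, SE 0.20, adjusted p = 0.072), but was in DESeq2 (adjusted p = 0.0433) and in 2 of 10 fits that each left out 1 library, those without Csn8AKO 2 (-0.74, adjusted p = 0.000508) and without Ctrl 2 (adjusted p = 0.0488). Cox4i2, the hypoxia-inducible form of subunit 4, was called higher at very low levels, 2.56 to 3.20 CPM in Ctrl and 3.96, 2.72, 4.74, 4.08 and 4.11 in Csn8AKO (0.44, SE 0.16, adjusted p = 0.0442); its call held in 1 of 10 fits that each left out 1 library. Cox4i1, the common form, was at 899 to 1029 CPM in Ctrl and 782 to 1136 in Csn8AKO and was not called (-0.17, SE 0.12, adjusted p = 0.304).

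Complex V had 11 of 17 nuclear genes lower and 1 higher, and 13 and 1 without Csn8AKO 2. Atp5e, a small subunit of the rotating stalk, fell most, from 162 to 195 CPM in Ctrl to 95.8 to 129 in Csn8AKO (-0.77, SE 0.10, adjusted p = 4.68e-05), without overlap. The catalytic head was not called: Atp5a1 stood at -0.33 (adjusted p = 0.0577) and Atp5b at -0.13 (adjusted p = 0.486). Among the 3 genes for subunit c, Atp5g2 was lower (-0.37, SE 0.09, adjusted p = 0.00868), Atp5g3 was not called (-0.32, SE 0.13, adjusted p = 0.0738) and Atp5g1 was higher.

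**Figure D2:**
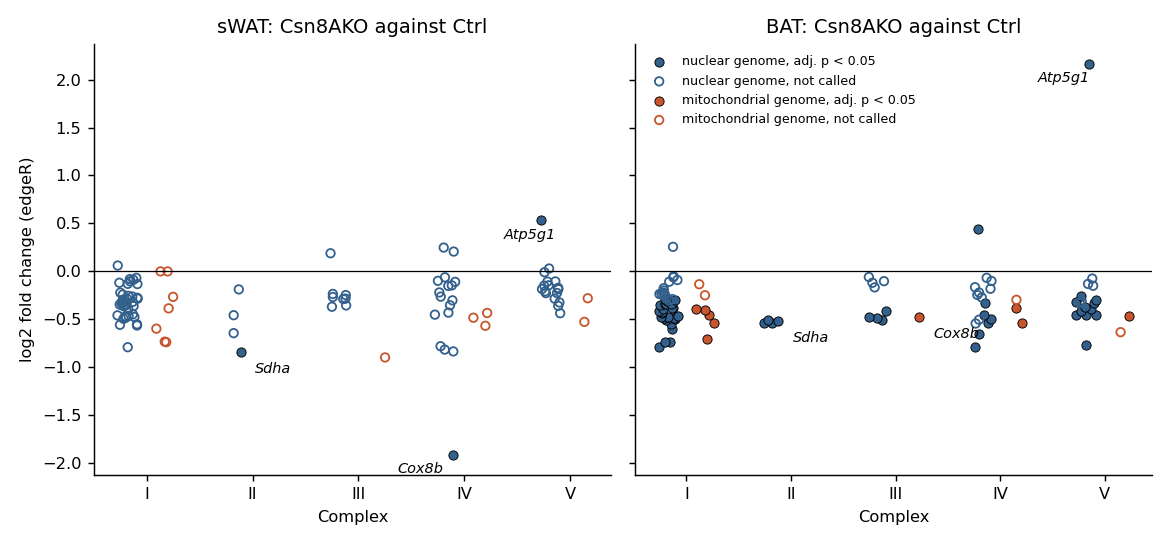
Log2 fold change of each respiratory chain gene, Csn8AKO against Ctrl, in sWAT (left) and BAT (right) by complex; blue points are nuclear genes, orange points mitochondrial genes, and filled points passed an adjusted p of 0.05 in edgeR. In BAT 60 points are filled below 0, while Atp5g1 stands alone at 2.17; in sWAT most points lie below 0 but only Cox8b, Sdha and Atp5g1 are filled.

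Atp5g1, Atp5g2 and Atp5g3 encode the same mature c subunit, whose ring turns in the membrane as protons pass, behind different import peptides. In BAT, Atp5g1 read 6.75, 6.05, 5.02, 3.60 and 5.66 CPM in Ctrl and 32.4, 7.25, 27.3, 25.8 and 28.4 CPM in Csn8AKO. The groups did not overlap, but Csn8AKO 2 was close to Ctrl and the other 4 were several-fold above it. Means rose from 5.41 ± 1.19 to 24.2 ± 9.80 CPM (SD, n = 5 each), a log2 fold change of 2.17 (SE 0.35, adjusted p = 0.00104), and it was the only member past a fold of 1 in either direction (6.85% of all genes tested were higher past it). It passed in each of the 10 fits that left out 1 library, with log2 fold changes from 2.05 to 2.40. On the scale shared by all 18 libraries, Atp5g1 lay between 19.8 and 24.2 CPM in sWAT Ctrl and at 32.6, 7.48, 28.0, 26.4 and 28.7 CPM in BAT Csn8AKO, so 4 of the 5 BAT Csn8AKO libraries were above the sWAT Ctrl range.

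In sWAT, Atp5g1 was also higher in Csn8AKO: 22.5, 24.5, 20.5 and 20.6 CPM in Ctrl and 34.0, 26.4, 34.3 and 32.5 in Csn8AKO, without overlap. Its log2 fold change was 0.53 (SE 0.13, adjusted p = 0.0472), and it was called in 1 of 8 fits that left out 1 library: leaving out any library other than Csn8AKO 2 ended the call (adjusted p = 0.0843 to 0.159). Atp5g2 (-0.23, SE 0.15) and Atp5g3 (-0.29, SE 0.21) had negative values in sWAT and were not called. A processed pseudogene on chromosome 11, Gm10039, matches Atp5g1 at 99.757% over 411 bases and can take or remove its reads. It had 14, 6, 14, 12 and 14 counts in BAT Ctrl and 88, 9, 20, 79 and 50 in Csn8AKO, against 195 to 357 for Atp5g1 in BAT Ctrl and 184 to 1921 in Csn8AKO. With its counts added, Atp5g1 stood at 2.17 in BAT (adjusted p = 0.00102), and in sWAT its call was lost (0.51, adjusted p = 0.0515). Another 5 features, which are genes of other names, share at most 147 bases each with a long Atp5g1 transcript and hold 21073 counts over the 18 libraries, against 11043 for Atp5g1 itself. With the counts of all 6 added, the summed feature stood at 0.48 in BAT (SE 0.13, adjusted p = 0.0151) and at 0.22 in sWAT (SE 0.11, adjusted p = 0.297). These sums take in reads of those genes along with any reads they share with Atp5g1.

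**Figure D3:**
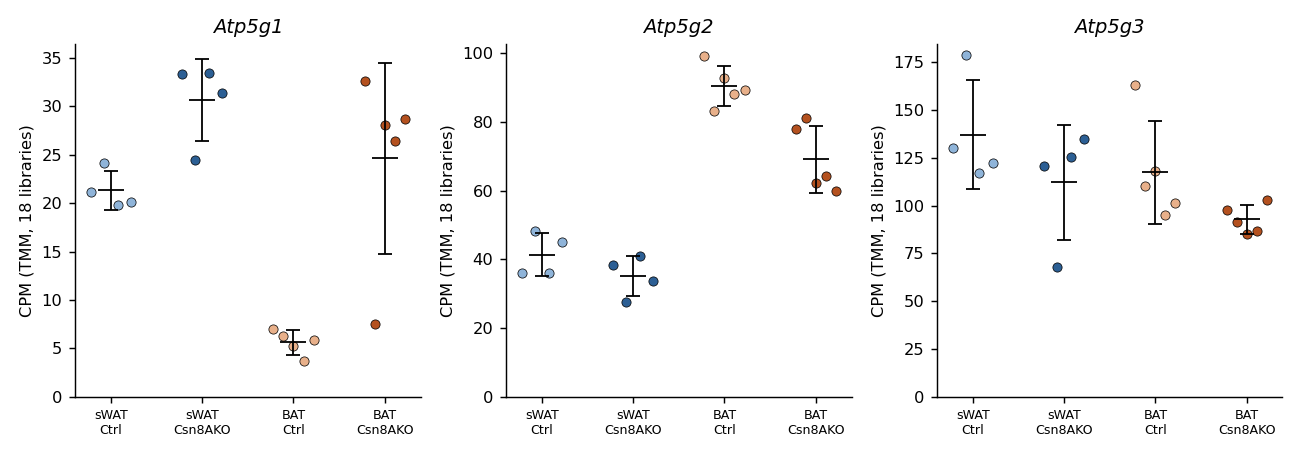
CPM of the genes for subunit c of ATP synthase in each library (TMM factors of all 18 libraries), by depot and genotype; points are mice, and bars give the mean and SD (n = 4 per sWAT group, n = 5 per BAT group). Atp5g1 is lowest in BAT Ctrl and rises in BAT Csn8AKO except in 1 library, whereas Atp5g2 and Atp5g3 do not rise in either depot.

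The promoters of these 3 genes are shown because only Atp5g1 rose. They run from 250 bases before to 50 bases after the annotated start and come from RefSeq (GRCm38.p6): Atp5g1 at chr11:96075582-96075881, Atp5g2 at chr15:102670998-102671297 and Atp5g3 at chr2:73911277-73911576, all on the minus strand. Capitals mark matches on either strand to GCATGCGC for the factor NRF1, TCAAGGTCA for estrogen-related receptors, CCGGAAGT for ETS factors and AAGATGGCG for YY1. They also mark the core promoter element TATAAA bound by the TATA-binding protein, the element CCAAT bound by the factor NF-Y, and the element CAGCTG known as an E box.
Atp5g1: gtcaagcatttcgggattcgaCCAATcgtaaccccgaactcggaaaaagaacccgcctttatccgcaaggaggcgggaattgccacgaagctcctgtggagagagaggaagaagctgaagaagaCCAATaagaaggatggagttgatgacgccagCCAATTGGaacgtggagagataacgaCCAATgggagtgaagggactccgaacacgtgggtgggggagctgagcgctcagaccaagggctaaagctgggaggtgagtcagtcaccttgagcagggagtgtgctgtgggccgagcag
Atp5g2: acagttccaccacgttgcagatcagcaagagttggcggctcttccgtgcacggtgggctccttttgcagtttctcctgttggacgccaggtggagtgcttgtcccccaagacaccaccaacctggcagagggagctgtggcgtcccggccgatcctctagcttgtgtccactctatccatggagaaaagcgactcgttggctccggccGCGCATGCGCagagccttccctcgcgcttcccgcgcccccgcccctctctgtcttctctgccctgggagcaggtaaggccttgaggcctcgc
Atp5g3: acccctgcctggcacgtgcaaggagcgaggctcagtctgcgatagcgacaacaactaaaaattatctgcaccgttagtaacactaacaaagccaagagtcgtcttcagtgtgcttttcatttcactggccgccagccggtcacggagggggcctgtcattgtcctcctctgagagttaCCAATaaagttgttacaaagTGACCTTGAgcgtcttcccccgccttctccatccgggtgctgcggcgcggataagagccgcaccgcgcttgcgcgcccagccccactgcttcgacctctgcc
Atp5g1 held 5 CCAAT matches, of which 2 overlapped on opposite strands, and no match to the others. Atp5g2 held overlapping NRF1 matches on both strands from base -42 to -33, counted from the annotated start, and Atp5g3 a receptor match on the reverse strand from -52 to -44 and a CCAAT match. Promoters were matched for 66 members: 10 of them (15.2%) held the NRF1 letters, against 4.11% of 16513 protein-coding genes, 7 (10.6%) the YY1 letters against 2.25%, 2 (3.03%) the receptor letters against 0.388%, 5 (7.58%) the ETS letters against 5.94%, 29 (43.9%) a CCAAT box against 42.1%, 7 (10.6%) a TATA box against 14.3% and 6 (9.09%) an E box against 17.7%. These are letter matches and do not show binding.

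In sWAT, the chain leaned lower in Csn8AKO, but few genes passed the test. Of 96 genes tested, 2 were called lower (3.00% of all genes tested were) and 1 higher (2.30%), and 90 had a negative log2 fold change, with a median of -0.29 against 0.03 over all genes. An unadjusted p under 0.05 was reached by 22 of the 96, all but Atp5g1 with a negative log2 fold change. Of all genes tested, 20.4% reached it in both directions together, a share close to that of the members. That background share was not split by direction. The groups were fully apart for 14 genes that were lower (8.23% of all genes were) and 1 that was higher (5.80%). Without Csn8AKO 2, median log2 fold changes moved toward 0, to -0.18 for nuclear complex I genes and -0.02 for nuclear complex V genes, from -0.33 and -0.19, and the calls numbered 2 lower (3.51% of all genes were) and 1 higher (4.19%). Over all members the median was then -0.14, with 71 of 96 values negative. Without Ctrl 2 instead, the median was -0.19, 77 of 96 values were negative and 0 of the 3 calls of the main fit held. Marker sums moved with genotype here too: the 12 adipocyte markers summed to 16638 to 24106 CPM in Ctrl and 6993 to 15896 in Csn8AKO, without overlap, and 4 of the 12 were called lower and 0 higher. Macrophage markers were called higher for 8 of 12 (943 to 1358 CPM in Ctrl and 1310.3 to 2437 in Csn8AKO). Their part in the respiratory chain values was not tested.

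Cox8b changed most in sWAT. It read 37.5, 39.2, 27.0 and 36.5 CPM in Ctrl and 17.0, 4.98, 5.65 and 9.35 in Csn8AKO, without overlap (log2 fold change -1.92, SE 0.37, adjusted p = 0.0205), and it was the only member past a fold of 1 (1.91% of all genes tested were lower past it). Leaving out Ctrl 2, Ctrl 4 or Csn8AKO 3 ended its call (adjusted p = 0.0617 to 0.0652), with log2 fold changes from -2.40 to -1.70 over the 8 fits that left out 1 library. The 10 brown and beige adipocyte markers, a list that does not contain Cox8b, summed to 119 to 216 CPM in Ctrl and 43.5 to 107 in Csn8AKO. These markers did not all go one way: of 7 tested, 3 were called lower and 0 higher. Only 4 of the 7 had a negative log2 fold change, and the highest stood at 2.27. Their share in the Cox8b value was not tested. Cox8a, its common partner, read 128 to 189 CPM in Ctrl and 65.1 to 152 in Csn8AKO and was not called (-0.43, SE 0.24, adjusted p = 0.352).

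Among nuclear genes, those of complex II had the lowest median log2 fold change of the 5 complexes in sWAT (-0.55). Sdha read 363, 537, 380 and 452 CPM in Ctrl and 263, 181, 257 and 268 in Csn8AKO, without overlap (-0.84, SE 0.19, adjusted p = 0.0347). Its call held in 3 of 8 fits that left out 1 library and was lost without Ctrl 2, Ctrl 3, Ctrl 4, Csn8AKO 1 or Csn8AKO 3 (adjusted p = 0.0737 to 0.102). Sdhb read 102 to 164 CPM in Ctrl and 54.5 to 98.7 in Csn8AKO (-0.65, SE 0.21, adjusted p = 0.109), and Sdhc 98.7 to 134 and 54.3 to 95.2 (-0.46, SE 0.19, adjusted p = 0.21). Both were apart between the groups but not called. Sdhd overlapped between the groups, with a log2 fold change of -0.19. The widest values in the other complexes, none of them called, were Ndufa4l2 (-0.79) and Ndufb2 (0.06) in complex I, Uqcrc2 (-0.37) and Uqcrh (0.19) in complex III, Cox6b2 (0.25) at the upper end of complex IV, and Atp5b (-0.44) at the lower end of complex V.

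The 13 genes of the mitochondrial genome are read as long joined transcripts, 12 from one strand and mt-Nd6 from the other. In BAT, 9 of the 13 were called lower. mt-Cytb, the complex III cytochrome b, read 21572 to 24655 CPM in Ctrl and 13331 to 19786 in Csn8AKO (-0.48, SE 0.14, adjusted p = 0.0164), and mt-Nd5 of complex I 11046 to 13341 and 7330 to 9521 (-0.45, SE 0.13, adjusted p = 0.0157); the groups did not overlap in these. mt-Nd6 had the most negative value, from 791 to 1342 CPM in Ctrl to 531 to 863 in Csn8AKO (-0.71, SE 0.16, adjusted p = 0.00363). mt-Nd1 (-0.14), mt-Nd2 (-0.25), mt-Co1 (-0.30) and mt-Atp8 (-0.64, SE 0.24, adjusted p = 0.0662) were not called. In sWAT 0 of 13 were called by edgeR and 3 by DESeq2. An unadjusted p under 0.05 in edgeR was reached by 6, all with negative values (20.4% of all genes reached it, both directions together). The gene closest to a call was mt-Cytb, from 2777 to 4618 CPM in Ctrl to 1362 to 2350 in Csn8AKO, without overlap (-0.90, SE 0.25, adjusted p = 0.0733).

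In genome order, the sWAT log2 fold changes ran from -0.00 at mt-Nd1 and mt-Nd2, through -0.48 at mt-Co1 and -0.57 at mt-Co2, to -0.74 at mt-Nd4, -0.60 at mt-Nd5 and -0.90 at mt-Cytb. The run was not even: after mt-Co2, mt-Atp8 (-0.28), mt-Atp6 (-0.53), mt-Co3 (-0.44) and mt-Nd3 (-0.39) were less negative than mt-Co2. Over the 12 genes of that strand, Spearman's rho between order and log2 fold change was -0.80 in sWAT and -0.57 in BAT, as a description of genes that share a transcript and libraries. The log2 ratio of mt-Cytb to mt-Nd1 counts, chosen after the values were seen, was 1.16, 1.15, 1.02 and 1.01 in sWAT Ctrl and -0.01, 0.39, 0.25 and 0.27 in sWAT Csn8AKO. In BAT it was 1.01, 1.01, 1.28, 1.34 and 0.93 in Ctrl and 1.01, 0.80, 0.63, 0.72 and 0.68 in Csn8AKO. The sWAT groups were apart in this ratio, which needs no library scaling, and the BAT groups overlapped.

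**Figure D4:**
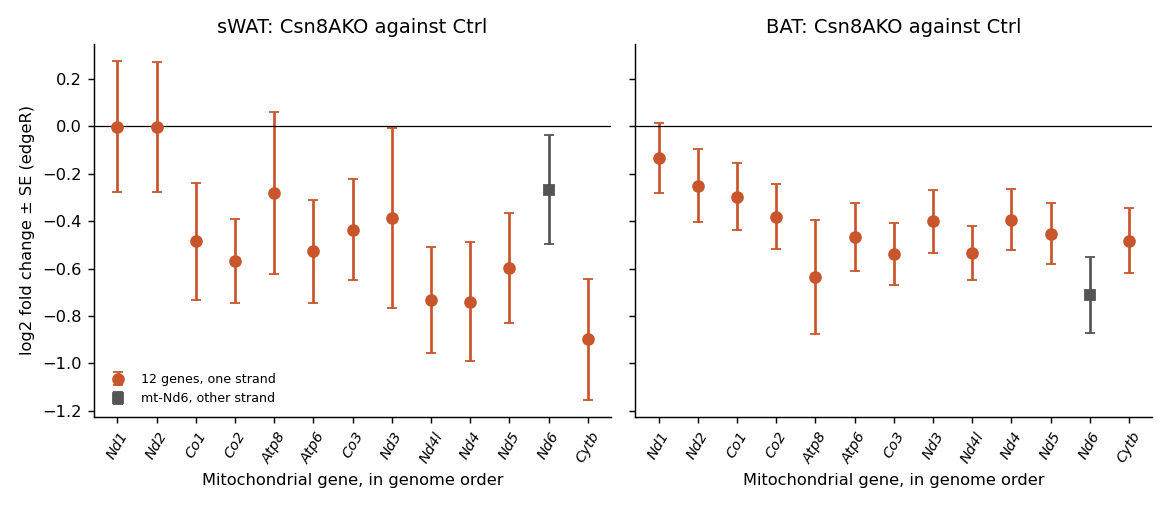
Log2 fold change with its SE for the 13 protein genes of the mitochondrial genome, Csn8AKO against Ctrl, in genome order from left to right, in sWAT (left) and BAT (right); orange circles are the 12 genes on one strand and the grey square is mt-Nd6 on the other. In sWAT the values go unevenly from about -0.00 at mt-Nd1 and mt-Nd2 to -0.90 at mt-Cytb. In BAT mt-Nd1 is at -0.14 and mt-Cytb at -0.48, with mt-Atp8 (-0.64), mt-Co3 (-0.54), mt-Nd4l (-0.53) and mt-Nd6 (-0.71) lower than mt-Cytb.

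Levels of part of these genes depend on how reads were placed. A nuclear copy of the mitochondrial genome on chromosome 1 (24611535 to 24616197) holds 7 annotated pseudogenes that match mt-Nd4, mt-Nd4l, mt-Nd3, mt-Co3, mt-Atp6, mt-Co2 and mt-Co1 at 99.71% to 100% of aligned bases. Over the 18 libraries, mt-Atp6 had 200443 counts and its copy 393100, mt-Co2 had 272222 and its copy 292826, and mt-Co1 had 14407505 and its copy 412906. Features matching at 95% or more over 100 bases, wherever they lie, numbered 2 for mt-Co1, with 1191618 counts, and 2 for mt-Co2, with 479618. mt-Nd2 and mt-Nd5 had 1 each, with 11488 and 60280 counts. With the counts of the chromosome 1 copies alone added to their genes, 7 mitochondrial genes were called lower in BAT and 1 in sWAT.

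As a share of all counts, the mitochondrial genes took 1.63% ± 0.17 in sWAT Ctrl and 1.10% ± 0.48 in sWAT Csn8AKO (SD, n = 4 each), and 9.00% ± 0.26 in BAT Ctrl and 7.67% ± 0.69 in BAT Csn8AKO (SD, n = 5 each). The nuclear genes took 0.765% ± 0.097 and 0.568% ± 0.195 in sWAT, and 3.31% ± 0.13 and 2.88% ± 0.11 in BAT. Ribosomal RNA genes, which enter the total, took 32.1% and 48.5% of counts in sWAT Csn8AKO 3 and 4. Without them in the total, mitochondrial shares in sWAT were 1.84% in Ctrl and 1.40% in Csn8AKO, and nuclear shares 0.860% and 0.732%, with the genotypes overlapping in both. Mitochondrial counts were thus 2.13 and 1.91 times the nuclear ones in sWAT Ctrl and Csn8AKO, and 2.72 and 2.67 times in BAT, and in both depots the genotypes overlapped in this ratio. The balance between the genomes did not separate the genotypes at this spread.

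Ratios of paired forms were taken per length within each library, 7 pairs in each depot, with exact two-sided permutation tests and p adjusted over the 14. None passed 0.05 after adjustment. In BAT the log2 ratio of Atp5g1 to Atp5g2 was -5.59 ± 0.33 in Ctrl and -3.19 ± 1.01 in Csn8AKO (exact p = 0.00794, the smallest the design allows, adjusted p = 0.0889), without overlap. In sWAT it was -2.50 ± 0.17 and -1.75 ± 0.08 (exact p = 0.0286, the smallest there, adjusted p = 0.0889), also without overlap. Cox8b to Cox8a in sWAT was -1.29 ± 0.21 in Ctrl and -2.90 ± 0.74 in Csn8AKO (exact p = 0.0286, adjusted p = 0.0889), without overlap, and in BAT 0.91 ± 0.44 and 0.59 ± 0.42 (exact p = 0.278). Cox7a1 to Cox7a2 was 1.11 ± 0.23 in BAT Ctrl and 0.76 ± 0.14 in BAT Csn8AKO (exact p = 0.0238, adjusted p = 0.0889), and -3.16 ± 0.44 and -3.65 ± 0.43 in sWAT (exact p = 0.171). Per annotated length, the brown-fat forms exceeded their partners in BAT of both genotypes and were the minority in sWAT. These lengths were 535 and 944 bases for Cox7a1 and Cox7a2, and 360 and 619 for Cox8b and Cox8a. The sign in BAT depends on them. In CPM, Cox8b read 309, 336, 354 and 346 in BAT Csn8AKO 1, 3, 4 and 5, and Cox8a read 346, 433, 465 and 503. In BAT Csn8AKO 2, Cox8b was the higher (638 against 446 CPM). Cox7a1 was below Cox7a2 in CPM in BAT Csn8AKO 3, 4 and 5. Cox4i2 to Cox4i1 in BAT was -7.43 ± 0.16 in Ctrl and -6.83 ± 0.52 in Csn8AKO (exact p = 0.0476, adjusted p = 0.111). Cox6a2 to Cox6a1 in BAT, with 0.5 added to counts, was higher in Csn8AKO by 3.02 (exact p = 0.0317, adjusted p = 0.0889), with Cox6a2 at 39 and 24 counts in Csn8AKO 1 and 5, the libraries with muscle markers, and 0 to 11 in the other 3.

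**Figure D5:**
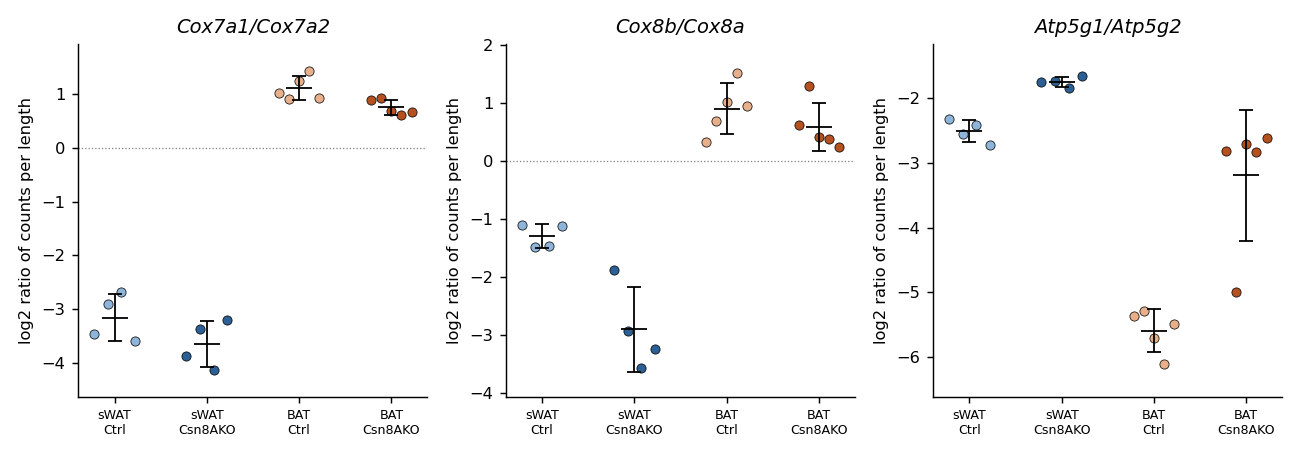
Log2 ratio of counts per length between paired subunit forms in each library, by depot and genotype; points are mice, and bars give the mean and SD (n = 4 per sWAT group, n = 5 per BAT group). Per annotated length, Cox7a1 and Cox8b exceed their partners (ratio above the dotted line at 0) only in BAT libraries. The ratio of Atp5g1 to Atp5g2 is higher in Csn8AKO of both depots.

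Promoters of these complex IV pairs are shown since they are the tissue forms and common forms side by side (RefSeq, GRCm38.p6): Cox7a1 at chr7:30183921-30184220 on the plus strand, and Cox7a2 at chr9:79759804-79760103, Cox8b at chr7:140900397-140900696 and Cox8a at chr19:7217567-7217866 on the minus strand. Capitals mark the same letters as above.
Cox7a1: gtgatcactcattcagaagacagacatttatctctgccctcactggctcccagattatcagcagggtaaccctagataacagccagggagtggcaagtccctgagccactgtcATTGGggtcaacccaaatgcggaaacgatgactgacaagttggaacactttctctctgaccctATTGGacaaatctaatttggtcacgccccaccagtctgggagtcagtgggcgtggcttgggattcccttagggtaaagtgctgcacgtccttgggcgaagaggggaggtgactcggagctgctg
Cox7a2: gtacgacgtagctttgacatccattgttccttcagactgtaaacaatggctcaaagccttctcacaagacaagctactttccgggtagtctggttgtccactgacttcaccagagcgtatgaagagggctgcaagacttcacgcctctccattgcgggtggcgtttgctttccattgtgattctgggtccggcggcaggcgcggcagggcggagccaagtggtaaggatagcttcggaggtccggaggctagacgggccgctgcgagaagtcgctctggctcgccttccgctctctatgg
Cox8b: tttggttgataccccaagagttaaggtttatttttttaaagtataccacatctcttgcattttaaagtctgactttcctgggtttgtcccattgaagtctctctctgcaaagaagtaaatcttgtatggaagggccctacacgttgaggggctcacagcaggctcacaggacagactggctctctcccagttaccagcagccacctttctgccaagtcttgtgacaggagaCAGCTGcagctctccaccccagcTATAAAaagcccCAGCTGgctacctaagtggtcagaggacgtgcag
Cox8a: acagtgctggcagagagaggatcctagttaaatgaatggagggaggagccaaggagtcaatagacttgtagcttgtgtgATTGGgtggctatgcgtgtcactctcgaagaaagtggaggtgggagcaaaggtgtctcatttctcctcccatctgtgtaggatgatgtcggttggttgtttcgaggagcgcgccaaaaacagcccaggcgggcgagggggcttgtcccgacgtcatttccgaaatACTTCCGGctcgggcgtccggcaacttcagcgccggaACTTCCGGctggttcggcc
The tissue forms held fewer CG dinucleotides, 7 in Cox7a1 and 2 in Cox8b, than the common forms, with 20 in Cox7a2 and 19 in Cox8a; the median was 19.0 over the 66 members with a promoter and 14.0 over all 16513 genes. Cox8b held a TATA box from base 5 to 10 after the annotated start and 2 E boxes, Cox7a1 held 2 CCAAT matches, Cox8a 2 ETS matches and a CCAAT match, and Cox7a2 none of the letters searched.

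Between depots, the difference in genotype effect (BAT minus sWAT) was called above 0 for 1.61% of all genes tested and below 0 for 0.755%. Of the 99 respiratory chain genes tested, it was called for 1, Atp5g1, whose change was larger in BAT by 1.62 on the log2 scale (SE 0.40, adjusted p = 0.0383). The call was lost in 16 of 18 fits that each left out 1 library and held without BAT Csn8AKO 2 (1.85, adjusted p = 0.000102) and without BAT Ctrl 1 (1.71, adjusted p = 0.0434); over the 18 the adjusted p ran up to 0.0818. Cox8b, called in sWAT and not in BAT, differed by 1.39 (SE 0.43, adjusted p = 0.101), and Cox4i2 by 1.23 (SE 0.37, adjusted p = 0.0888), so neither was shown to differ between depots.

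Genes that assemble or serve the chain were also counted, beside a BAT background in which 15.8% of all genes tested were lower and 16.0% higher and an sWAT background of 3.00% and 2.30%. Of the complex I assembly factors, 11 of 18 were lower and 0 higher in BAT and 3 of 18 lower in sWAT, led by Nubpl, which delivers iron-sulfur clusters to complex I (BAT -1.25, adjusted p = 5.9e-05; sWAT -1.03, adjusted p = 0.022). Assembly factors were lower in BAT for 3 of 4 of complex II, with Sdhaf3 at -1.02, 2 of 6 of complex III, with Lyrm7 at -0.72, 5 of 19 of complex IV, with Cmc1 at -0.68, and 2 of 4 of complex V, with Tmem242 at -0.78; 1 of complex IV was higher. In sWAT none of these 4 groups had a call in edgeR, with 0, 1, 4 and 2 members at an unadjusted p under 0.05, which 20.4% of all genes reached. Among electron carriers and coenzyme Q genes, 8 of 16 were lower and 1 higher in BAT, with Coq8a at -0.93 and Etfb at -0.68, and 1 of 16 lower in sWAT, Coq10a (-0.92, adjusted p = 0.0163). Cycs, the cytochrome c gene, was not called (BAT -0.27, adjusted p = 0.0763; sWAT 0.00).

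Among genes that copy and transcribe mitochondrial DNA, 12 of 26 were lower and 1 higher in BAT, and 1 of 25 lower in sWAT. Mgme1, a nuclease of mitochondrial DNA upkeep, was lower in both (BAT -0.97; sWAT -0.75, adjusted p = 0.0291), and Tfb1m, a methyltransferase of mitochondrial ribosomal RNA, in BAT (-1.02). Tfam, which packages and helps transcribe mitochondrial DNA, was lower in BAT (-0.33, adjusted p = 0.0235) and not called in sWAT (-0.01, adjusted p = 0.981). Mitochondrial ribosomal protein genes were lower for 24 and higher for 2 of 77 in BAT, with Mrps6 at 0.90, and lower for 1 of 77 in sWAT, Mrps15 (-0.58). Citric acid cycle genes were lower for 7 of 14 in BAT and 3 of 14 in sWAT, with Suclg2 lower in both (-0.79 and -0.73) and Idh2 at -0.92 in sWAT. The adenine nucleotide and phosphate carriers and porins had 0 of 6 called in edgeR in either depot, and 0 at an unadjusted p under 0.05 (41.7% of all genes in BAT and 20.4% in sWAT).

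Of 12 regulators of respiratory gene transcription tested in BAT, 3 were lower and 3 higher, and 0 of 11 were called in sWAT, where 3 had an unadjusted p under 0.05 (20.4% of all genes did). Esrrg, an estrogen-related receptor, was lower in BAT (-0.74). Ppargc1a, the coactivator that drives mitochondrial gene programs, was not called in either depot (BAT 0.91, adjusted p = 0.131; sWAT -1.29, adjusted p = 0.0906), nor was Esrra (-0.22, adjusted p = 0.116; -0.28, adjusted p = 0.449). Ucp1 in BAT stood at 0.53 and was not called (adjusted p = 0.167), beside a respiratory chain with 60 genes lower.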

How the data were processed

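Male mouse sWAT and BAT RNA was depleted of ribosomal RNA with RNase H, primed with random hexamers and sequenced in pairs. The authors aligned reads with STAR 2.7.9a to Ensembl release 101 (GRCm38) and counted them per gene with featureCounts 2.0.3; the deposited tables hold whole-number counts, used here, beside the authors' CPM, FPKM and TPM columns, which were not used. Strand in counting is not given in the sources used here, so reads of genes that overlap on opposite strands (such as Ndufb2 and Braf, Ndufs6 and Mrpl36, Ndufa4l2 and Shmt2, Cox6a2 and Itgad) cannot be told apart, and near-identical copies can split reads.

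Members and all gene lists were chosen with earlier results of these data known. Counts were tested with edgeR 4.0.16 (R 4.3.3; TMM, filterByExpr, robust quasi-likelihood F test, Benjamini-Hochberg over all genes tested) within each depot; the depot difference and the interaction came from a fit of all 18 libraries in 4 groups. The fit was tested on simulated data. Of the 102 members, 96 passed the low-count filter in sWAT, 98 in BAT and 99 over all libraries; Cox7b2 and 1 of 2 features named Atp5o had 0 counts throughout. Genes named with values are the mitochondrial genes, complex II, paired forms, the extremes of each complex and depot, genes past both cutoffs (adjusted p of 0.05 and log2 fold change of 1), and in other lists the called gene of largest change or smallest adjusted p. Isoform ratios were compared by exact permutation tests (scipy 1.17.1). Copies were found with blastn 2.17.0 (at least 95% identity over 100 bases). Alternatives were RLE factors, library size alone, no filter, DESeq2 1.42.0, a replicate block, pooled or covariate fits, other share denominators, counts of near-identical copies added and leaving out libraries. Depth limits precision for genes of a few counts; p-values measure the spread between mice.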

Additional observations from a re-analysis of the deposited data

Results flagged for a closer look

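Among 206 sets of 4 or 5 libraries, 26 held a library whose gap to its nearest neighbour passed Dixon's 95% limit, where chance gives about 1 in 20. Of the 26, 17 were BAT Csn8AKO 2. It was the highest of its group for Sdha (2393 CPM), Sdhb (719), Sdhd (428), Cox4i1 (1136), Cox7a2 (204), Cox8b (638), Uqcrc1 (1940), Uqcrc2 (811), Uqcrh (406), Ndufs6 (113), Ndufv1 (883), Atp5b (4983), Atp5e (129) and mt-Atp6 (461 CPM). It was the lowest for Atp5g1 (7.25 CPM) and for the log2 ratios of Atp5g1 to Atp5g2 (-4.99) and of Cox4i2 to Cox4i1 (-7.73). In that library the members that were low in the other Csn8AKO mice were high and the one that was high in them was low, while its fibroblast and macrophage marker sums stayed above every Ctrl library.

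The other flags were spread over libraries and genes. In sWAT, Ctrl 2 was high for mt-Atp8 (17.7 CPM), Cox8a (189) and Cox5a (36.0), Ctrl 3 was high for mt-Nd3 (9.71 CPM), and Csn8AKO 2 was low for Sdha (181 CPM). In BAT, Ctrl 1 was high for Cox5a (344 CPM), Ctrl 3 for mt-Nd5 (13341 CPM) and Ctrl 2 for the log2 ratio of Cox4i2 to Cox4i1 (-7.16), and Csn8AKO 1 was low for Cox6a1 (833 CPM).

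Atp5g1 was also flagged because its genotype effect differed between depots by test, by 1.62 on the log2 scale (SE 0.40, adjusted p = 0.0383 in edgeR), with a higher level in Csn8AKO in both depots.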

How the results depend on the processing

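Every member called in sWAT (3), BAT (62) or between depots (98) kept its direction under all alternatives run. In sWAT, nuclear genes called lower numbered 1 with library size alone, 1 with the replicate block, 9 with all 4 groups in one fit, 7 with a B and T cell covariate and 0 to 2 when 1 library was left out. Genes called higher numbered 0 with library size alone, without the filter, with the block, in the 4-group fit, and with the counts of Gm10039 or of all 6 matching features added to Atp5g1. They numbered 0 to 1 with 1 library out. Mitochondrial genes lower in sWAT numbered 3 in DESeq2, 3 in the 4-group fit, 1 with the chromosome 1 copies added, 4 with the covariate, 3 without Ctrl 1 and Csn8AKO 2 (chosen after seeing the data, as were all added copies and the set without BAT Csn8AKO 1 and 5) and 0 in each fit with 1 library out. In BAT, nuclear genes lower numbered 28 in the 4-group fit, 19 with a muscle covariate, 26 without Csn8AKO 1 and 5 and 36 to 68 with 1 library out, and mitochondrial genes lower 3, 2, 3 and 5 to 12; genes higher numbered 1 with the block, the covariate or without Csn8AKO 1 and 5, and 1 to 2 with 1 library out. For the interaction, 3 genes were higher with library size alone, 5 in DESeq2 and 0 without the filter or with the block, 0 to 2 with 1 library out, and 0 to 1 lower. TMM factors differ between genotypes by -0.14 (sWAT) and 0.13 (BAT) on the log2 scale; with library size alone the members' median log2 fold change was -0.41 in sWAT and -0.27 in BAT. The cause of these moves was not tested. Shares over all genes were taken only for the main fits and those without Csn8AKO 2, so the other counts have no background beside them.

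Without ribosomal RNA in the denominator, mitochondrial shares were 1.84% and 1.40% in sWAT and 9.36% and 8.13% in BAT (Ctrl and Csn8AKO), nuclear shares 0.860% and 0.732% in sWAT, and nuclear shares 3.44% in BAT Ctrl and 3.06% in BAT Csn8AKO. Over nuclear protein-coding counts, mitochondrial shares were 2.00% in sWAT Ctrl, 1.55% in sWAT Csn8AKO, 10.9% in BAT Ctrl and 9.38% in BAT Csn8AKO, and nuclear shares 0.934% and 0.811% in sWAT and 3.99% and 3.53% in BAT Ctrl and Csn8AKO.

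Replicate numbers showed no clear pairing of the mice: deviations of same-numbered libraries correlated from -0.42 to 0.25 in sWAT (1 of 4 pairs over 0.1, 0 of 4 best with their own number) and from -0.14 to 0.17 in BAT (2 of 5 and 2 of 5). With so few pairs these values cannot exclude a pairing, and the sample titles state none. With the block, BAT had 50 nuclear and 9 mitochondrial genes lower, and between depots 82 nuclear genes were higher and 2 lower. With 4 or 5 mice a group, exact tests cannot go below p = 0.0286 in sWAT and 0.00794 in BAT.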
